A study of Cavia porcellus with 12 samples.

Results

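Interleukins are small secreted proteins through which leukocytes and tissue cells signal to each other, and each acts through a receptor built from chains that are often shared between several interleukins. The members described here were the genes in the authors' table of rlog values (a regularised log transformation) whose symbol starts with IL and a digit, leaving out *IL1B*, *IL18*, *IL6R*, *IL6ST* and *IL7R*. This gave 31 genes of 11896 in the table. Of the 31, 23 encode receptor chains, 6 encode ligands (*IL7*, *IL10*, *IL15*, *IL16*, *IL33* and *IL34*), *IL18BP* encodes a soluble protein that binds IL18, and *IL4I1*, named for its induction by IL4, encodes an amino acid oxidase. All 31 had passed the authors' filter of at least 200 counts over all animals, and interleukin genes that are not in the table were not analysed here.

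The samples were livers of female Dunkin Hartley guinea pigs, one sample for each animal. The Control group was 6 healthy animals on Chow, and the NASH group was 6 animals on a High fat diet (with added sucrose and cholesterol), both for 25 weeks. The NASH animals had been chosen because their livers showed bridging fibrosis, whereas the controls had been drawn at random from animals without NASH or fibrosis, so diet and disease cannot be told apart. The livers were not perfused, so blood cells were part of the tissue. Animals are named here by their group and number (5, 10, 31, 32, 45 and 56 in Control, 2, 9, 11, 20, 41 and 65 in NASH). Levels are given in CPM, a rate per fixed number of reads: the reads of a gene relative to the animal's total after TMM scaling, which corrects for differences in library composition. CPM values are not per gene length, so they compare animals for 1 gene and not genes with each other.

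Total counts per animal ranged from 16980274 to 33091460, and a gene without a count could still hold up to 3 counts, which is between 0.0765 and 0.214 CPM (counting error only). The hepatocyte marker *ALB* stood at a mean of 74880 CPM in Control and 30530 CPM in NASH, and 7 of the 8 hepatocyte markers found were lower in NASH. All 9 of the pan-leukocyte markers found were higher, with a summed level of 87.0 to 177 CPM in Control and 322 to 359 CPM in NASH. The macrophage markers (11 found, 4 higher, 1 lower and 6 not past the threshold) summed to between 475 and 966 CPM in Control and between 1180 and 1600 CPM in NASH, the B and plasma cell markers (5 found, 4 higher) to between 10.8 and 31.6 and between 31.9 and 40.9 CPM, and the neutrophil and mast cell markers (5 found, 4 higher) to between 6.80 and 12.8 and between 19.7 and 31.4 CPM. The T and NK cell list behaved otherwise, with 2 of 12 markers higher, 3 lower and 7 not past the threshold. Its sum was 94.3 to 143 CPM in Control and 55.0 to 94.9 CPM in NASH, of which *CD3E* made up a mean of 69.0 CPM in Control and 33.0 CPM in NASH. Cholangiocyte markers (7 found, 6 higher) summed to 93.8 to 143 CPM in Control and 350 to 604 CPM in NASH, stellate cell and fibroblast markers (10 found, 8 higher and 1 lower) to 732 to 883 and 1540 to 3030 CPM, and endothelial markers (9 found, 3 higher and 2 lower) to 584 to 790 and 644 to 922 CPM. Within the macrophage sum *GPNMB* made up a mean of 54.0 CPM in Control and 498 CPM in NASH, so much of the rise of that sum was *GPNMB*. The median log2 fold change of the macrophage list was 0.33, and its lower marker was *MARCO*, at 80.8 and 33.4 CPM. No marker found was at or under 3 counts in every animal. The part of these shifts in the results that follow was not tested, and in bulk tissue fewer cells of a type and less RNA per cell cannot be told apart.

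Guinea pigs with NASH had higher RNA levels of 15 interleukin and interleukin receptor genes and lower levels of 5, by edgeR's quasi-likelihood test at a threshold of 0.05 on p-values adjusted over all 11896 genes (Benjamini-Hochberg). The largest rises were in *IL22RA1* and *IL1RL2*, receptor chains for IL22 and IL36, and the largest falls were in *IL13RA2*, a decoy receptor for IL13, and the ligand gene *IL15*. The 20 differentially expressed members were 64.5% of the 31, where 53.9% of all genes tested passed. Higher members were 48.4% against a background of 27.9%, and lower members 16.1% against 26.0%. At a log2 fold change of 1 or more in size, 6 members were higher and 2 lower (12.8% and 5.35% of all genes). The middle log2 fold change of the members was 0.43, and that of all genes 0.00. In 9 members every NASH animal lay above every control and in 3 every NASH animal lay below, where the groups did not overlap in 33.7% of all genes (18.4% higher and 15.3% lower). Scaling by library size alone, which moves the median of all genes to 0.48, gave 20 members higher and 2 lower (64.5% and 6.45%). Under that scaling 63.9% of all genes were higher and 7.66% lower, so the shares of the members were then near those of all genes.

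**Figure D1:**
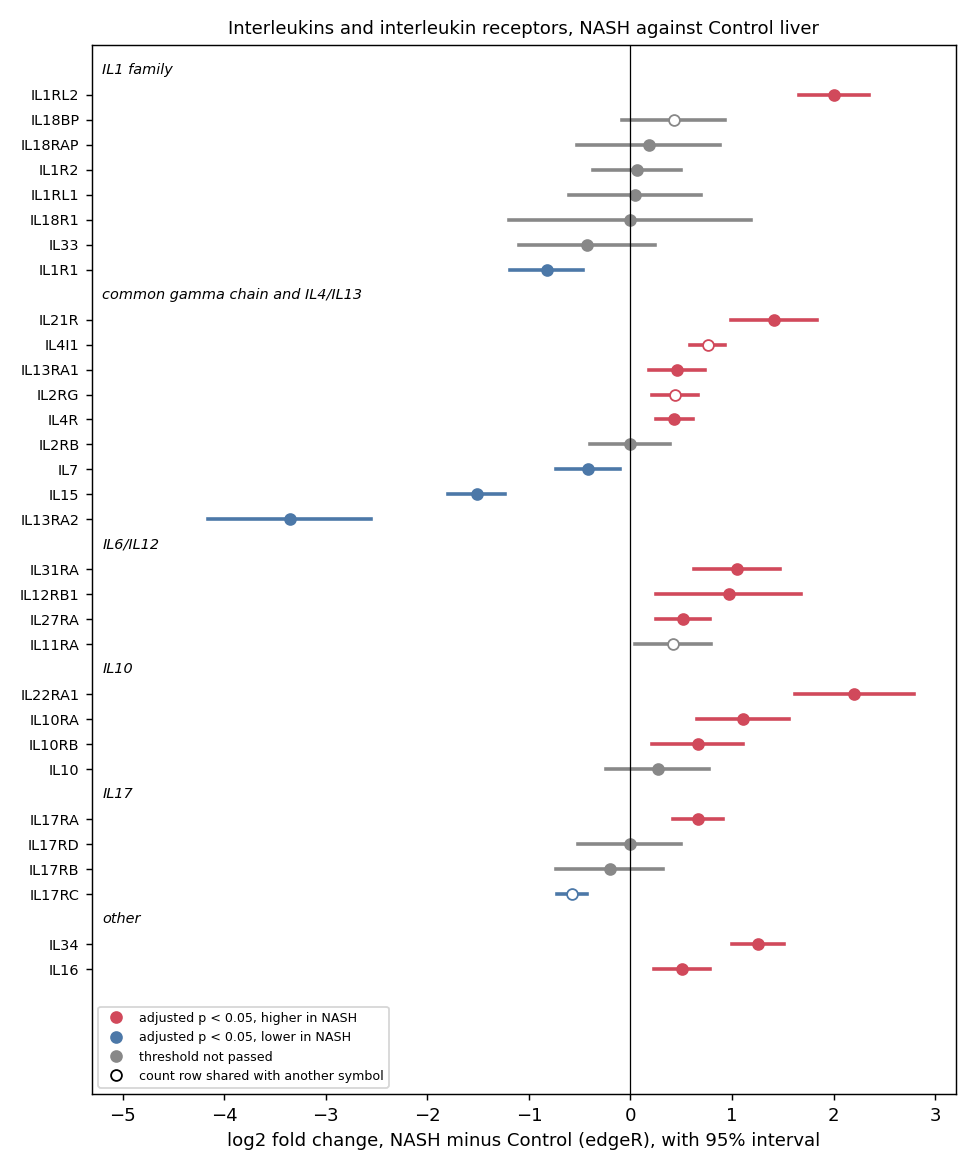
Log2 fold change of each of the 31 members (horizontal axis, NASH minus Control, edgeR), grouped by cytokine family, with lines for 95% intervals and open points for genes whose count row carries another symbol. The values run from -3.36 for *IL13RA2* to 2.20 for *IL22RA1*, with 15 members higher, 5 lower and 11 not past the threshold.

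Counts were assigned by the authors to assembled loci, and a locus can span neighbouring genes. For 26 members the count row carried no other symbol, and of these 13 were higher and 4 lower. These shares were 50% and 15.4%, against 27.9% and 26.0% of all genes. The other members shared a row with *RNF121* (*IL18BP*), *CRELD1* (*IL17RC*), *NUP62* (*IL4I1*), *CXorf65* and *AL590764.2* (*IL2RG*) or *AL162231.3* (*IL11RA*). Reads of these partners cannot be separated from those of the member.

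The IL1 family includes IL33, an alarmin kept in the nucleus of endothelial and other barrier cells and bound by *IL1RL1*, together with the receptors for IL1, IL18 and IL36. Of its 8 members, 1 was higher, 1 was lower and 6 did not pass the threshold (25% called, against 53.9% of all genes). Their median log2 fold change was 0.06. *IL1RL2*, the ligand-binding chain of the IL36 receptor, rose 4.01-fold. Its level was 0.929 CPM in the lowest control, 1.68 in the median and 2.05 in the highest, and 5.84, 6.68 and 7.45 CPM in the NASH animals. The groups were far apart and the NASH animals close together. On the log2 scale the rise was 2.01 (SE 0.16, edgeR adjusted p = 7.14e-07), and it stayed between 1.90 and 2.08 with any 1 animal left out.

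*IL1R1*, the signalling receptor of IL1 on most tissue cells, fell by 0.83 on the log2 scale (SE 0.17, adjusted p = 0.00105 from edgeR). Controls lay at 103, 182 and 199 CPM (lowest, median and highest) and NASH animals at 79.7, 89.3 and 120 CPM. Controls 31 and 45 stood at 103 and 123 CPM, within or just above the range of the NASH animals, and the other 4 controls lay between 173 and 199 CPM. With library size alone the difference was -0.35, not past the threshold (edgeR adjusted p = 0.0595). *IL1R2*, a decoy that binds IL1 without signalling, showed no such difference. Its controls ranged from 9.45 to 20.1 CPM and its NASH animals from 10.2 to 21.1 CPM, with a log2 fold change of 0.07 and a 95% interval from -0.37 to 0.50. With library size alone it was 0.54 (adjusted p = 0.0228 from edgeR), where the median of all genes was 0.48.

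*IL33* did not pass the threshold (log2 fold change -0.43, SE 0.31, adjusted p = 0.264 from edgeR). Its animals were spread widely in both groups, from 37.8 to 114 CPM in Control and from 31.8 to 87.8 CPM in NASH, with coefficients of variation of 39.7% and 38.1% where counting error alone gives 2.65% and 2.29%. Controls 5, 10 and 56 stood between 96.8 and 114 CPM and the other 3 between 37.8 and 60.3 CPM. The value turned to 0.05 with library size alone.

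The chains of the IL33 and IL18 receptors were measured at low depth. *IL1RL1* was between 0.905 and 3.16 CPM in Control and between 1.12 and 1.83 CPM in NASH, and its 95% interval ran from -0.61 to 0.70. *IL18R1* had no count in control 10, which allows up to 0.154 CPM, and up to 1.89 CPM in the other controls, against 0.544 to 1.15 CPM in NASH. Its interval, from -1.19 to 1.18, was the widest among the members, so a doubling in either direction was within it. Its controls had a coefficient of variation of 73.0%, where counting error alone gives 25.0%. *IL18RAP*, the second chain of the same receptor, ranged from 0.286 to 1.40 CPM in Control and from 0.592 to 1.11 CPM in NASH. *IL18BP*, on a row shared with *RNF121*, had a log2 fold change of 0.43 (95% interval -0.08 to 0.94), with control 56 at 9.15 CPM and the other controls between 22.4 and 29.1 CPM. Without control 56 it was 0.26 (adjusted p = 0.138 from edgeR).

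**Figure D2:**
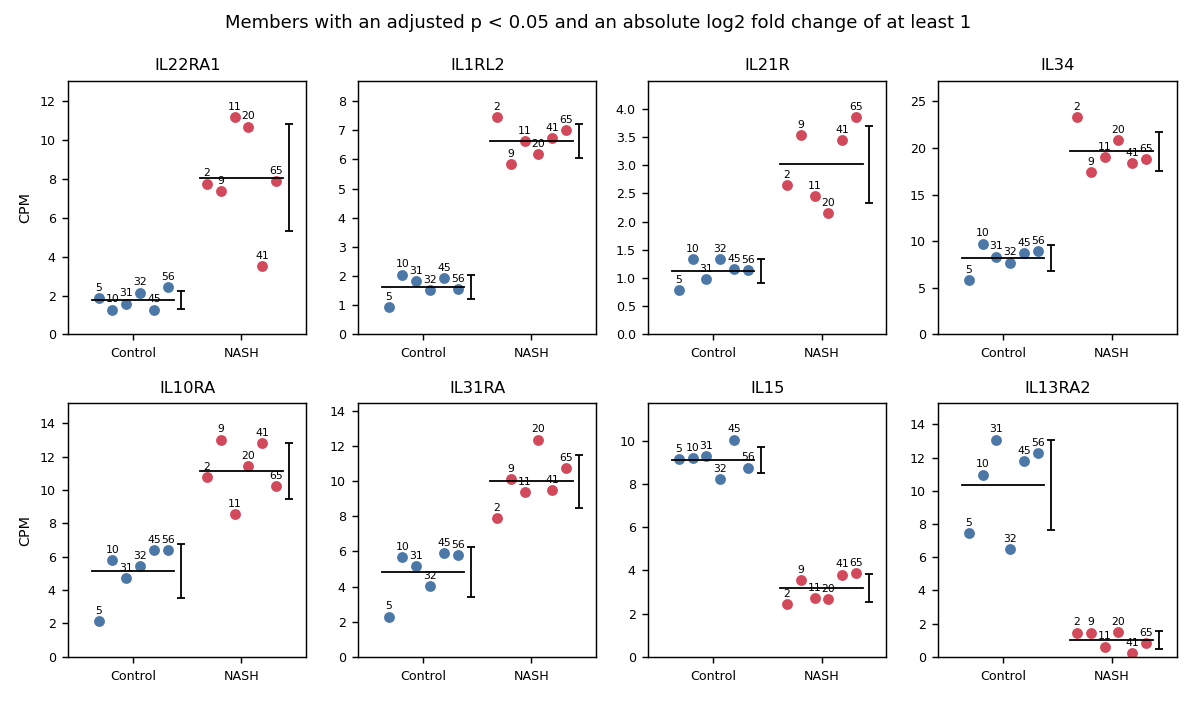
CPM of each animal (points, labelled with the animal's number) for the 8 members past the threshold whose log2 fold change was 1 or more in size. Horizontal lines are group means and bars the SD (n = 6 each). In all 8 genes the groups do not overlap, with *IL15* and *IL13RA2* lower and the other 6 genes higher in NASH. Choosing genes by threshold and size favours such separation, and the groups did not overlap in 33.7% of all genes.

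IL2, IL4, IL7, IL15 and IL21 signal through receptors that contain the common gamma chain encoded by *IL2RG*, and IL13 shares *IL4R* with IL4. Of the 9 genes grouped here, 5 were higher, 3 were lower and 1 did not pass the threshold. These shares were 55.6% higher and 33.3% lower, against 27.9% and 26.0% of all genes. *IL13RA2*, which binds IL13 with high affinity and is mostly regarded as a decoy, had the lowest log2 fold change of all members. Controls lay at 6.47, 11.4 and 13.1 CPM (lowest, median and highest) and NASH animals at 0.230, 1.13 and 1.50 CPM. The highest NASH animal lay far below the lowest control, and the counts behind these levels were 104 to 287 in Control and 9 to 50 in NASH. It came to -3.36 as a log2 fold change (SE 0.37, edgeR adjusted p = 9.75e-06), a level 10.2-fold lower in NASH.

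The chains that carry the IL4 and IL13 signal moved the other way and by less. *IL13RA1* rose by 0.46 on the log2 scale (SE 0.13, adjusted p = 0.00855 from edgeR), from a mean of 118 ± 24.7 to 162 ± 14.4 CPM (SD, n = 6 each). *IL4R* rose by 0.43 (SE 0.084, adjusted p = 0.000846 from edgeR), from 42.8 ± 4.23 to 57.7 ± 5.55 CPM (SD, n = 6 each). In both genes the groups overlapped through single controls, animal 5 for *IL13RA1* at 151 CPM and animal 56 for *IL4R* at 50.8 CPM.

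*IL15*, a ligand that keeps NK cells and memory T cells alive, fell 2.85-fold. Its level was 8.21, 9.16 and 10.04 CPM in the lowest, median and highest control, and 2.45, 3.14 and 3.89 CPM in the NASH animals. The controls agreed within a coefficient of variation of 6.64%, below the 7.53% that counting error gives. On the log2 scale this was -1.51 (SE 0.13, adjusted p = 1.21e-06 from edgeR). *IL7*, a ligand that lymphocytes need for survival, had a smaller difference of -0.42 (SE 0.15, adjusted p = 0.0272 from edgeR). Its groups overlapped through control 31 at 2.93 CPM. Without control 5, control 32, NASH 2 or NASH 9 it was not past the threshold (adjusted p = 0.0522, 0.0625, 0.0566 and 0.0563 from edgeR), nor was it with every row that had a count (-0.33, adjusted p = 0.105 from edgeR). With library size alone its log2 fold change was 0.06.

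*IL21R*, the receptor of the T cell cytokine IL21 on lymphocytes, rose 2.67-fold. Controls lay at 0.786, 1.15 and 1.33 CPM and NASH animals at 2.15, 3.05 and 3.85 CPM, a rise of 1.42 on the log2 scale (SE 0.19, edgeR adjusted p = 5.57e-05). The groups were apart although the counts were only 11 to 29 in Control. *IL2RG*, its partner chain, rose by 0.44 (SE 0.10, adjusted p = 0.00338 from edgeR) on a row with other symbols. *IL2RB*, the chain through which IL2 and IL15 signal and a gene of T and NK cells, stood at a mean of 10.3 CPM in both groups, with a log2 fold change of -0.0024 and a 95% interval from -0.40 to 0.39. It was highest in control 56 (14.3 CPM) and NASH 2 (14.3 CPM) and lowest in control 5 (6.50 CPM). With library size alone *IL2RB* was at 0.47 (adjusted p = 0.0487 from edgeR). The *IL4I1* row rose by 0.76 (SE 0.079, adjusted p = 5.55e-06 from edgeR), without overlap between groups, and its reads include those of *NUP62*, a nuclear pore gene.

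IL6 and IL12 type cytokines act through long receptor chains that activate STAT proteins. Of the 4 members here, 3 were higher and none was lower (75% called, against 53.9% of all genes). Their median log2 fold change was 0.74. *IL31RA*, a receptor chain for the itch-related cytokine IL31, rose from 2.29, 5.43 and 5.93 CPM (lowest, median and highest) in Control to 7.89, 9.82 and 12.4 CPM in NASH. The log2 fold change was 1.05 (SE 0.20, adjusted p = 0.000591 from edgeR), and control 5 was the lowest of all animals. *IL27RA*, the IL27 receptor chain, rose by 0.52 (SE 0.12, adjusted p = 0.00338 from edgeR), with an overlap between control 32 at 3.81 CPM and NASH 11 at 3.77 CPM.

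*IL12RB1*, a chain shared by the IL12 and IL23 receptors, rose by 0.97 on the log2 scale (SE 0.33, edgeR adjusted p = 0.0249), a value that rested on some of the NASH animals. NASH 2 and NASH 41 stood at 1.56 and 1.61 CPM, inside the control range of 1.47 to 2.22 CPM, while the other 4 were between 4.10 and 6.69 CPM. Without NASH 65 the log2 fold change was 0.71 (adjusted p = 0.0624 from edgeR) and without control 32 it was 0.90 (adjusted p = 0.0518 from edgeR). It did not pass with limma-voom (log2 fold change 0.75, adjusted p = 0.162) or with limma on the rlog values (0.28, adjusted p = 0.0517). *IL11RA*, the IL11 receptor chain, stood at 0.42 on the log2 scale (edgeR adjusted p = 0.0590) and passed with DESeq2 (adjusted p = 0.0473), with every row that had a count (edgeR adjusted p = 0.0302) and without control 5, control 10 or NASH 20 (adjusted p = 0.0262, 0.0495 and 0.0430 from edgeR).

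The IL10 family holds IL10, which restrains macrophages and dendritic cells, and IL22, which acts on epithelial cells, hepatocytes included. Both signal with *IL10RB* as the second chain. Of the 4 members, 3 were higher and 1 did not pass the threshold (75% called, against 53.9% of all genes). *IL22RA1*, the chain that makes a cell responsive to IL22, rose 4.60-fold and had the highest log2 fold change of the members. Controls lay at 1.28, 1.72 and 2.42 CPM and NASH animals at 3.52, 7.82 and 11.2 CPM. The groups did not overlap, and NASH 41 was the lowest NASH animal, well under the next at 7.39 CPM. As a log2 fold change this was 2.20 (SE 0.27, adjusted p = 2.29e-05 from edgeR). As sums, the cholangiocyte markers were higher in all NASH animals than in all controls, and the hepatocyte markers lower. The sums of the stellate cell and fibroblast markers and of the leukocyte lists other than T and NK cells were also higher. Which cells carried *IL22RA1* was not tested.

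*IL10RA*, the ligand-binding chain for IL10 on leukocytes, rose 2.15-fold, from 2.14, 5.63 and 6.42 CPM (lowest, median and highest) in Control to 8.55, 11.1 and 13.0 CPM in NASH. Control 5 lay far below the other controls, which began at 4.70 CPM. The log2 fold change was 1.10 (SE 0.21, adjusted p = 0.000675 from edgeR). The pan-leukocyte markers had a median log2 fold change of 1.19 and the macrophage markers 0.33. Medians were -0.11 for T and NK cell, 1.49 for B and plasma cell and 1.33 for neutrophil and mast cell markers. A link of these lists to *IL10RA* was not tested. *IL10RB* rose by 0.66 (SE 0.21, adjusted p = 0.0160 from edgeR). NASH 2 and NASH 9, at 15.1 and 13.6 CPM, lay inside the control range of 10.3 to 17.4 CPM, and the other 4 NASH animals between 23.4 and 29.4 CPM. The ligand gene *IL10* had a log2 fold change of 0.27 (95% interval -0.24 to 0.77), with 11 to 35 counts in Control and 31 to 73 in NASH.

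**Figure D3:**
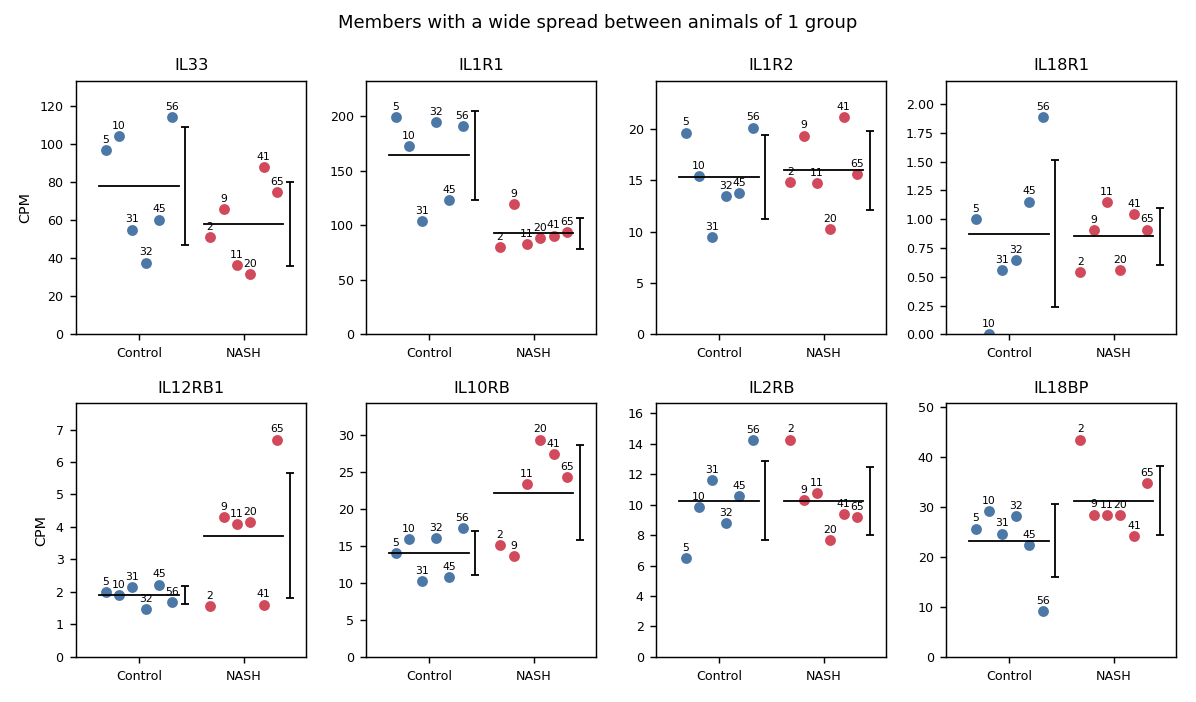
CPM of each animal (points, labelled with the animal's number) for 8 members with a wide spread between animals of a group, chosen after the values were seen; horizontal lines are group means and bars the SD (n = 6 each). *IL12RB1* shows 2 NASH animals at control level and 4 above it, and *IL33* spans 37.8 to 114 CPM within Control.

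The IL17 receptors are built around *IL17RA*, which joins *IL17RC* to bind IL17A and IL17F. Of the 4 members, 1 was higher, 1 was lower and 2 did not pass the threshold (50% called, against 53.9% of all genes). *IL17RA* rose by 0.66 on the log2 scale (SE 0.11, adjusted p = 0.000322 from edgeR), from 9.85 ± 1.58 to 15.6 ± 1.82 CPM (SD, n = 6 each), and *IL17RC* fell by 0.58 (SE 0.070, adjusted p = 2.1e-05 from edgeR), from 62.5 ± 6.08 to 42.0 ± 1.69 CPM (SD, n = 6 each). Neither gene overlapped between groups. The *IL17RC* row also carries *CRELD1*, and its difference was -0.10 with library size alone (adjusted p = 0.279 from edgeR). *IL17RB*, the IL25 receptor chain, and *IL17RD* ranged from 0.544 to 1.64 CPM over both groups, and their 95% intervals ran from -0.73 to 0.32 and from -0.51 to 0.50.

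The remaining ligand genes belong to no such family. *IL34* encodes a second ligand of the macrophage growth factor receptor CSF1R. It rose 2.39-fold, from 5.79, 8.51 and 9.74 CPM (lowest, median and highest) in Control to 17.4, 18.9 and 23.3 CPM in NASH. The rise on the log2 scale was 1.25 (SE 0.12, adjusted p = 2.38e-06 from edgeR), and the lowest NASH animal was well above the highest control. *IL16*, which encodes a chemoattractant for CD4+ cells, rose by 0.51 (SE 0.13, adjusted p = 0.00482 from edgeR) without overlap, from at most 4.04 CPM in Control to at least 4.29 CPM in NASH. Over the 6 ligand genes, 2 rose and 2 fell, and their median log2 fold change was -0.08. Over the 23 receptor chains 12 rose and 3 fell, and the median was 0.43. The called shares were 66.7% of the ligands and 65.2% of the chains, against 53.9% of all genes, and a difference between ligands and chains was not tested.

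To compare chains that work as pairs, the log2 CPM of one chain was subtracted from that of the other within each animal, so that the scaling of the animal all but drops out. Of 13 pairs listed, 7 had both genes in the table, and each difference between groups was tested by exact permutation (two-sided, all splits of the animals), with p-values adjusted over the 7 pairs. The balance of the decoy *IL1R2* to the signalling *IL1R1* was higher in NASH by 0.86, with Control between -3.85 and -3.15 and NASH between -3.10 and -2.09 (exact p = 0.00216, the smallest value possible, adjusted p = 0.00505). The balance of the decoy *IL13RA2* to *IL13RA1* was lower by 3.89, with Control between -4.33 and -2.70 and NASH between -9.08 and -6.60 (exact p = 0.00216, adjusted p = 0.00505). So the decoy rose relative to the signalling chain for IL1 and fell relative to it for IL13.

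*IL17RA* relative to *IL17RC* was higher in NASH by 1.24, from -2.67 ± 0.26 to -1.43 ± 0.13 (SD, n = 6 each), with an exact p of 0.00216 and an adjusted p of 0.00505. *IL2RB* relative to *IL2RG* was lower by 0.43, from 0.48 ± 0.19 to 0.05 ± 0.26 (SD, n = 6 each), with an exact p of 0.0130 and an adjusted p of 0.0227, and only NASH 2, at 0.52, lay within the control range. The *IL17RC* row also carries *CRELD1*, and the *IL2RG* row *CXorf65* and *AL590764.2*. The differences with *IL17RC* and *IL2RG* are therefore not between receptor chains alone. The balance of *IL13RA1* to *IL4R* differed by 0.05 (exact p = 0.762), with both groups between 1.09 and 1.93. *IL10RA* relative to *IL10RB* differed by 0.54 (exact p = 0.149), and by 0.31 without control 5, the animal low in *IL10RA*. *IL18R1* relative to *IL18RAP* differed by 0.14 (exact p = 0.913), with a control SD of 1.97 and turning to -0.56 (log2) without control 10, which had no *IL18R1* count.

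**Figure D4:**
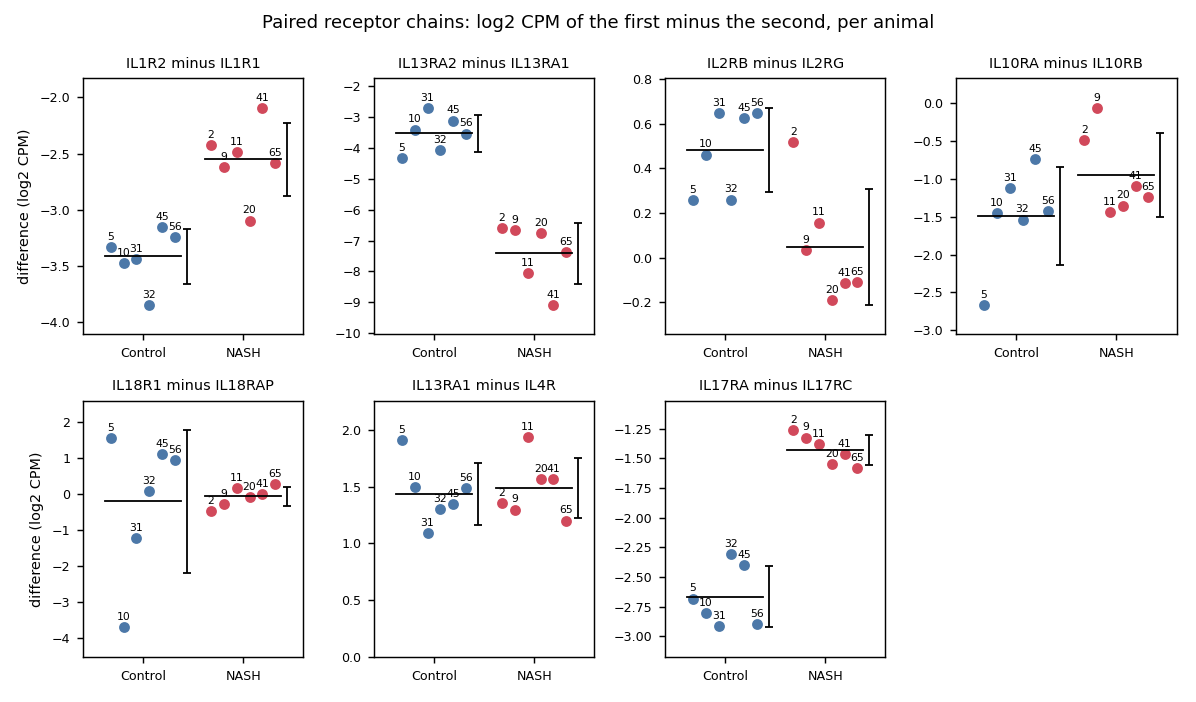
Difference in log2 CPM between the chains named above each panel, for each animal (points, labelled with the animal's number); horizontal lines are group means and bars the SD (n = 6 each), and vertical scales differ between panels. The groups do not overlap in *IL1R2* minus *IL1R1*, *IL13RA2* minus *IL13RA1* and *IL17RA* minus *IL17RC*. The count rows of *IL17RC* and *IL2RG* also carry other symbols.

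Of 45 further genes of interleukin signalling, 36 were in the table (kinases, STAT factors, adaptors, inhibitors and other cytokine receptors), of which 14 were higher, 6 lower and 16 not past the threshold. The called genes were 55.6% of the list, near the 53.9% of all genes, with 38.9% higher (27.9% of all genes) and 16.7% lower (26.0%). Their log2 fold changes had a median of 0.22. *TRAF3*, an adaptor that limits IL17 receptor signalling, rose by 1.20 (SE 0.084, adjusted p = 2.67e-07 from edgeR), from 6.76 ± 0.63 to 15.6 ± 1.31 CPM (SD, n = 6 each). *STAT4*, which transmits the IL12 signal, rose by 1.26 (SE 0.29, adjusted p = 0.00283 from edgeR), and *CSF3R*, the neutrophil growth factor receptor, by 1.27 (SE 0.43, adjusted p = 0.0234 from edgeR). *CSF3R* was not past the threshold without control 10 (1.16, adjusted p = 0.0501 from edgeR) or NASH 65 (0.91, adjusted p = 0.0623 from edgeR). *CISH*, a suppressor of STAT5 signalling, had the highest value of the list, 1.27 (SE 0.39, adjusted p = 0.0142 from edgeR), close to *CSF3R* and *STAT4*. Its groups overlapped, with 6.43 to 17.4 CPM in Control and 9.79 to 52.4 CPM in NASH (median 17.4). Its rank rested on NASH 9. Without that animal *CISH* was at 0.88, still past the threshold, but below *CSF3R* (1.29), *TRAF3* (1.20) and *STAT4* (1.20). *SOCS2*, a suppressor of growth hormone signalling, had the lowest value, -1.13 (SE 0.21, adjusted p = 0.000685 from edgeR). With library size alone, 26 genes of this list were higher and 2 lower (72.2% and 5.56%, where 63.9% and 7.66% of all genes were).

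Within Control, animal 56 had the highest level in 10 of the 31 members and the lowest in 4, and animal 5 the lowest in 10 and the highest in 3. Within NASH, animals 2 and 20 each had the lowest level in 9 members, animal 65 in 1, and each animal was highest in between 4 and 6 members.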

How the data were processed

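Liver RNA of 6 Control and 6 NASH guinea pigs was sequenced from stranded, single-read mRNA libraries. Per the submitters' processing notes, the authors trimmed reads with Trimmomatic 0.38.0, mapped them with HISAT2 2.1.0 to Cavpor3.0 without multimapped reads, and deposited raw counts per StringTie 1.3.6 locus. They also deposited log2 values, the rlog transformation of DESeq2, for 11896 human orthologue symbols with at least 200 counts. The count table names no symbols, so the transformation was repeated with DESeq2 1.42.0 on the 18422 rows with enough counts until each symbol's row gave the deposited values, to within 8.4e-07.

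Counts were tested with edgeR 4.0.16 in R 4.3.3 (TMM factors, whole-table totals as library size, robust glmQLFit and glmQLFTest), with Benjamini-Hochberg adjustment over all symbols. Log2 CPM used a prior count of 2. The standard error is the log2 fold change over the square root of F. Plots came from matplotlib 3.10.9 under Python 3.11.15. The procedure was tested on simulated data.

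Every member may be named, with full values for those past the threshold whose log2 fold change was 1 or more in size. Signalling genes were named by the same rule or as extremes of their list. A gene that met this rule is not reported here. Members and lists were chosen with earlier results of these data known. Alternatives were RLE factors, library size alone, DESeq2, limma-voom (limma 3.58.1), filterByExpr, every row with a count, each row once, a prior count of 0.5 for pairs, and each animal left out. Added after seeing the data were limma on the rlog values and a count of the members alone on their row. A search of promoters for motifs was planned and not run, since no sequences were used here.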

Additional observations from a re-analysis of the deposited data

Results flagged for a closer look

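In each group of 6 animals, the gap between the highest or lowest animal and the next was compared with the group's range on the log2 CPM scale, for the 31 members and 62 groups. A ratio above Dixon's 95% critical value for 6 animals was found in 6 of them, and chance alone gives about 1 in 20. All 6 were animals below the rest of their group. In Control these were animal 5 for *IL10RA* (ratio 0.714, 2.14 against 4.70 CPM in the next animal), animal 56 for *IL18BP* (0.772, 9.15 against 22.4 CPM) and animal 10 for *IL18R1* (0.652, no count against 0.559 CPM). In NASH they were animal 2 for *IL1RL1* (0.662, 1.12 against 1.56 CPM), animal 41 for *IL22RA1* (0.640, 3.52 against 7.39 CPM) and animal 20 for *IL2RG* (0.644, 8.76 against 9.63 CPM).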

How the results depend on the processing

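The number of members past the threshold was between 19 and 22 over the tools, scalings and filters tried, 17 among the 26 members alone on their row, and between 18 and 21 with each animal left out. Library size alone changed most: 2 members were lower in place of 5, and in the signalling list 26 genes were higher and 2 lower. Under it the log2 fold changes of *IL17RB* (0.27), *IL17RD* (0.46), *IL18R1* (0.46), *IL2RB* (0.47), *IL33* (0.045) and *IL7* (0.058) turned positive, each at or below the shift of 0.48 in the median of all genes. *IL10* (0.74), *IL18BP* (0.91), *IL1R2* (0.54), *IL11RA* (0.90) and *IL2RB* then passed the threshold as higher, and *IL1R1*, *IL17RC* and *IL7* no longer passed as lower. With every row that had a count, *IL17RD* (0.074), *IL18R1* (0.072) and *IL2RB* (0.085) turned positive, as did *IL18R1* with limma-voom (0.71) and, on the rlog values, *IL18R1* (0.006) and *IL2RB* (0.003). With single animals left out, *IL17RD* ranged from -0.12 to 0.082, *IL18R1* from -0.27 to 0.35, *IL1R2* from -0.041 to 0.17, *IL1RL1* from -0.081 to 0.34 and *IL2RB* from -0.12 to 0.11. *IL10* ranged from 0.16 to 0.40, *IL17RB* from -0.32 to -0.086 and *IL18RAP* from 0.027 to 0.44. The pair *IL18R1* minus *IL18RAP* then ranged from -0.56 to 0.49 and *IL13RA1* minus *IL4R* from -0.042 to 0.14. Of the members whose sign turned, *IL7* was past the threshold with TMM scaling and the others were not, and the cause was not tested. All 7 pair results kept their side of the threshold. No paired analysis was possible because the animal numbers of the groups do not overlap. At under 50 counts an animal, as in *IL18R1*, *IL18RAP* and *IL17RD*, precision was limited, and the narrowest 95% interval of these 3 genes ran from -0.51 to 0.50 on the log2 scale (*IL17RD*).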
